A study of Mus musculus with 58 samples.

Results

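Vehicle-treated lung and forestomach of the same mice were compared, that is the lung arrays of mice 1 to 5 and the forestomach arrays of mice 1 to 4. These 9 arrays were chosen by their titles out of the 58 arrays of the series. All animals of both groups were male Muta™Mouse, a transgenic strain whose cells carry a bacterial lacZ reporter, and were about 10 weeks old. They received olive oil alone by gavage for 28 days, and tissue was taken 72 h after the last dose. In the wider study other mice were given the polycyclic aromatic hydrocarbon benz(a)anthracene (BaA) to follow its effects in lung, liver and forestomach. Mouse numbers are shared between tissues, so 4 animals gave both tissues, and the forestomach of mouse 5 was not analysed here. RNA came from random slices of each organ, for lung of the right lobe, so the cell types of a sample depend on what the slices held. Each array set tissue RNA, labelled with Cy5, against the same reference RNA from 11 mouse cell lines, labelled with Cy3.

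The lung is built of thin alveoli. Type 1 cells form the surface for gas exchange, type 2 cells make surfactant, and both lie against a dense capillary bed, while the airways are lined by club and ciliated cells. The mouse forestomach is the part of the stomach that stores food. It has no glands and is lined by a keratinising stratified squamous epithelium like that of skin and oesophagus, over smooth muscle with enteric nerves. In such an epithelium basal cells express keratins 5 and 14, cells that differentiate switch to other keratins, and the outermost cells build a cornified envelope from loricrin, involucrin and small proline-rich proteins cross-linked by transglutaminases.

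Values are log2 ratios of tissue RNA to reference RNA, and differences are lung minus forestomach on the same scale. A value near 0 also arises where a probe was dim in both channels, because no background was subtracted. A gene was called where limma gave an adjusted p (Benjamini-Hochberg, over all probes tested) of 0.05 or less together with a fold difference of at least 1.5, and "higher" is used only of genes so called. Because whole tissue was assayed, fewer cells of a type and less RNA per cell cannot be told apart.

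The share of probes well above background in Cy5 was 44.4 to 53.9% on the lung arrays and 38.4 to 58.2% on the forestomach arrays. Arrays of lung correlated with each other with r of 0.909 to 0.983 and arrays of forestomach with r of 0.871 to 0.983, against 0.494 to 0.643 between the tissues. Each slide held arrays of 1 tissue, so tissue and slide cannot be told apart. The lungs of mice 4 and 5 were the vehicle lungs of 1 slide and had the lowest shares, 44.4 and 46.8%, against 53.0 to 53.9% on the other lung arrays. The forestomach of mouse 2 was the 1 vehicle forestomach on its slide, with 38.4% against 52.4 to 58.2% on the other forestomach arrays. The part of slide and signal in the differences of these arrays was not tested.

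An array of each tissue stood apart in marker lists of another tissue. The lung of mouse 5 had list means of 3.36 for stratified squamous epithelium, 3.21 for the cornified envelope and 5.09 for skeletal muscle, whereas the other 4 lungs lay at -0.01 to 0.06, 0.11 to 0.19 and -0.28 to 0.50. In that lung, 16 of the 20 tested squamous genes and 16 of the 21 tested cornified genes exceeded the highest of the other lungs by more than 1 on the log2 scale. The forestomach of mouse 2 had a list mean of 5.43 for glandular stomach against 1.08 to 1.26 in the other 3, and 2.64 against 0.16 to 0.66 for pancreas. Its means for fat and for smooth muscle were 1.96 and 4.16, against 4.16 to 4.78 and 4.97 to 5.31. The lungs of mice 4 and 5 had heart muscle means of 4.35 and 4.00, above the 0.60 to 2.21 of the other 3. The part of these arrays in the differences was not tested beyond leaving them out, so values without the lung of mouse 5 and the forestomach of mouse 2 are given in each paragraph for the called differences printed that moved by over 1.5 times. Without both, 6332 genes were called instead of 5926.

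**Figure D1:**
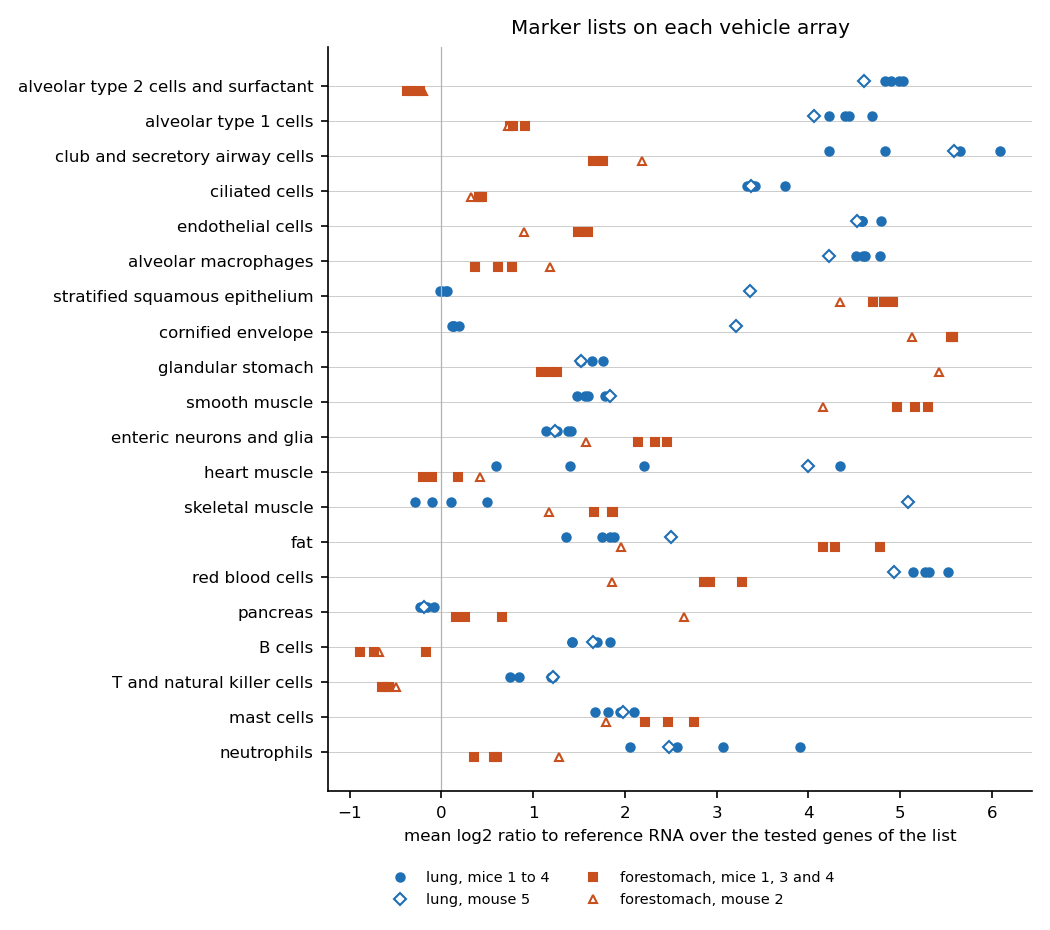
Mean log2 ratio to reference RNA over the tested genes of each marker list (x axis), 1 symbol for each of the 9 arrays. The lung of mouse 5 (open diamonds) lay at 3.36 for stratified squamous epithelium, far above the other lungs, and the forestomach of mouse 2 (open triangles) lay at 5.43 for glandular stomach.

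Of 25930 probes tested, 9848 were called (38%), 5380 of them higher in lung (20.7% of those tested) and 4468 higher in forestomach (17.2%). With 1 probe per gene, 13623 genes were tested. Of these, 3176 were higher in lung (23.3%), 2750 were higher in forestomach (20.2%) and 7697 were not called. The shares of 23.3% and 20.2% are the background for every count of list genes below. Differences of at least 4-fold were found for 812 genes higher in lung and 649 higher in forestomach, and of at least 16-fold for 140 and 172 genes. The 5 lung values and the 4 forestomach values did not overlap for 49.7% of probes and 54.5% of genes. Median centring in place of loess turned the balance of calls, with 999 genes higher in lung and 1686 higher in forestomach. It moved the median difference over probes from 0.03 to -0.43. Under it the marker lists described next had 11 of 12 genes of type 2 cells, 5 of 10 of type 1 cells, 16 of 20 of endothelium, 8 of 10 of alveolar macrophages and 2 of 5 of red cells as higher in lung. On the forestomach side 18 of 20 squamous, 20 of 21 cornified and 15 of 15 smooth muscle genes were higher.

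**Figure D2:**
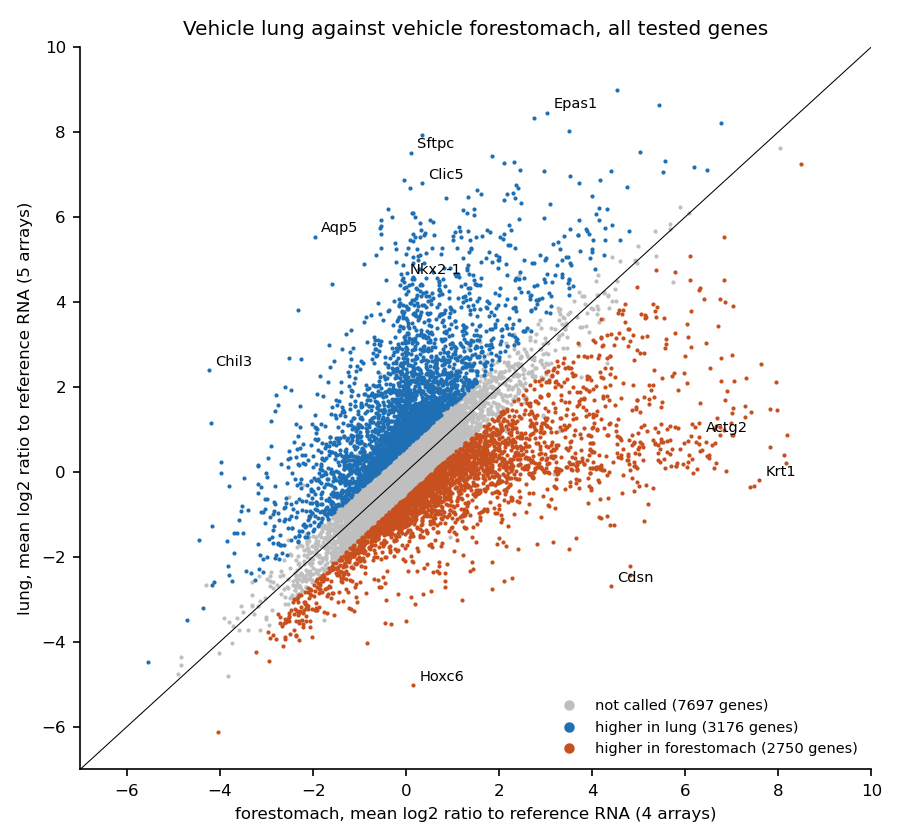
Mean log2 ratio to reference RNA of each of the 13623 tested genes in forestomach (x axis, 4 arrays) and in lung (y axis, 5 arrays), with a line of equality. The 3176 genes higher in lung lie above the line and the 2750 higher in forestomach below it, with Sftpc, Clic5 and Aqp5 on the lung side and Krt1, Actg2 and Hoxc6 on the forestomach side.

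The ranking here took called genes that were well above background on all 9 arrays and whose lung and forestomach values did not overlap. Among them the largest lung differences were those of Chil3, Clic5, Inmt, Hp, Limch1, Lyz1, Epas1, Sfta2, Cpm and Sec14l4. They ran from 5.30 to 6.63. Epas1 encodes the hypoxia-inducible factor HIF-2α. Its lung values were 8.59, 8.82, 8.47, 8.13 and 8.26 and its forestomach values 3.11, 2.76, 3.16 and 3.07. The gene was thus 43.1-fold higher in lung, with all 5 lungs far above the forestomachs (difference 5.43, SE 0.15, adjusted p = 3.58e-09). Clic5, a chloride channel-like protein abundant in type 1 cells, was 87.9-fold higher and Limch1 47.8-fold. Inmt, an indolethylamine methyltransferase, was 79.7-fold higher, and Hp, the haemoglobin-binding haptoglobin, 47.8-fold. Lyz1 encodes a lysozyme and was 47.7-fold higher. Chil3 varied most among the lungs, with 2.38, 1.77, 1.76, 4.03 and 2.03 in lung and -4.88, -2.17, -5.23 and -4.66 in forestomach. Sfta2 and Cpm had their highest forestomach value in mouse 2, at 2.83 and 2.48, against -0.45 to -0.11 and -0.75 to -0.43 in the other 3. Without the 2 arrays that stood apart, their differences were 6.21 and 6.18 in place of 5.42 and 5.32, and that of Chil3 was 7.41 in place of 6.63.

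The largest forestomach differences of the same kind were those of Ada, Krt10, Sprr1a, Cdsn, Cst6, Sbsn, Aqp3, Cstdc5, Serpinb3c and Degs2, from -5.70 to -7.82. Ada encodes adenosine deaminase, an enzyme of purine breakdown. Its forestomach values were 7.71, 7.04, 7.53 and 7.64 and its lung values -1.81, -1.76, -1.71, -1.76 and 5.34. Only the lung of mouse 5 came near the forestomach, and without the 2 arrays that stood apart the difference grew from -7.82 to -9.39. Degs2, a sphingolipid hydroxylase and desaturase, was less affected, at 6.13, 6.02, 6.15 and 6.03 in forestomach and 0.20, 0.38, 0.02, 0.43 and 0.89 in lung. It was 52.0-fold higher in forestomach (difference -5.70, SE 0.16, adjusted p = 3.46e-09). Cst6 and Cstdc5 encode cystatins, inhibitors of cysteine proteases, and were 130-fold and 57.6-fold higher in forestomach. Serpinb3c, a serpin, was 53.2-fold higher, with 5.83 in the lung of mouse 5 against 0.44 to 0.53 in the other lungs. Cst6, Cstdc5 and Serpinb3c were 213-fold, 112-fold and 129-fold higher without the 2 arrays.

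For 297 genes every lung array and no forestomach array was well above background, and for 178 genes the reverse held. For these only a lower bound of the ratio of tissue signals was taken, from Cy5 values and open to dye bias. The Cy5 values were rebuilt from the loess-normalised log ratio and the mean log signal of both dyes, brought to the same distribution on these arrays. The bound sets the mean of the bright tissue against a level taken on each array of the dim tissue. That level is the larger of the probe's own signal and the dimmest signal that still counted as well above background. Folds given as "at least" are such bounds. They are bounds of the rebuilt Cy5 signal only and can lie above or below the fold of the log ratio of the same gene. Other genes were well above background on some arrays only of the dimmer tissue, so their folds are partly set against background. Among the genes described with a fold or difference, this was 1 of 4 forestomachs for Ager, Cldn3, Dynlrb2 and Gabrp, 2 for Napsa, and 3 for Alas2, Aqp5, Cd79b, Cyp1a1, Fmo1, Gzma, Lpcat1, Marco and Tmem100. It was 1 of 5 lungs for Cldn1, Hoxc6, Krt1, Krt4, Krt6a, Krt6b, Myh2, Pitx1 and Serpinb5, 2 for Tfap2c, 3 for Cpa3, Hoxc4 and Ret, and 4 for Chrm2. Among called genes whose lung and forestomach values did not overlap, the 5 largest bounds for lung were those of Sftpc, Sftpb, Sftpa1, Cxcl15 and Ccdc153. In forestomach they were Sprr2d, Sprr2i, Fa2h, Psors1c2 and Adh6a, with signals at least 116-fold, 103-fold, 69.0-fold, 66.7-fold and 64.0-fold those of lung. By log ratio these 5 were 50.8-fold, 116-fold, 61.5-fold, 41.6-fold and 47.3-fold higher in forestomach. Fa2h encodes the fatty acid 2-hydroxylase that makes hydroxylated sphingolipids. It read 6.39, 5.22, 6.07 and 6.50 in forestomach and 0.28, 0.16, 0.09, 0.07 and -0.08 in lung, with its lowest forestomach value in mouse 2. Ccdc153, for which lung signal was at least 86.5-fold higher (70.8-fold by log ratio), read 5.31, 5.53, 5.31, 6.03 and 5.83 in lung and -0.66, -0.12, -0.51 and -0.90 in forestomach.

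Cy3 values were rebuilt in the same way as those of Cy5. Neither is the raw signal of its channel, and each can carry part of the other channel and of the normalisation. The same reference RNA was on every array, yet rebuilt Cy3 differed for some probes. On rebuilt Cy3 alone, 551 of the 25930 probes (2.12%) passed the same thresholds. Of 383 probes called with at least 16-fold differences in the log ratio, 121 also had a Cy3 difference in the same direction. For Sftpc, Cy3 was higher on the lung arrays by 5.79 on the log2 scale and Cy5 by 13.21, so the log ratio difference of 7.41 was smaller than that of the tissue channel. For Krt10, Cy3 was lower on the lung arrays by a difference of -2.16 and Cy5 by -9.91. The cause was not tested, and the part of the processing in these Cy3 differences was not tested either. Rebuilt Cy5 alone gave 3197 genes higher in lung and 2529 higher in forestomach.

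All 12 tested genes of alveolar type 2 cells and surfactant were higher in lung (beside 23.3% of all genes), with a median difference of 5.36 beside 0.03 over all genes tested. Sftpc, the hydrophobic protein SP-C, read 7.43, 7.73, 7.69, 7.49 and 7.24 in lung and -0.11, -0.01, 0.26 and 0.27 in forestomach. Sftpb, the protein SP-B that is needed for surfactant films, read 6.72, 7.00, 6.65, 7.12 and 6.85 and 0.02, 0.04, -0.20 and -0.01. Sftpa1, the collectin SP-A, read 6.47, 6.77, 6.62, 6.90 and 6.61 and 0.15, -0.11, 0.22 and 0.12. All 3 were well above background on all 5 lung arrays and on none of the 4 forestomach arrays. Their rebuilt lung Cy5 signals were at least 8816-fold, 1490-fold and 1398-fold higher. Their rebuilt Cy3 signals were also higher on the lung arrays, by 5.79, 3.87 and 4.10 on the log2 scale, and their log ratios differed by 7.41, 6.91 and 6.58. Sftpd, the collectin SP-D, read 7.67, 8.04, 7.95, 8.17 and 7.82 in lung and 0.05, 1.81, -0.14 and -0.38 in forestomach, with the value of mouse 2 above the other forestomachs. Abca3, the lipid transporter of lamellar bodies, was 5.67-fold higher in lung, and Lpcat1, which makes surfactant phosphatidylcholine, 6.87-fold. Slc34a2, the phosphate transporter of type 2 cells, was at least 37.9-fold higher, with a log ratio difference of 4.76. The protease gene Napsa read 4.29, 4.14, 4.24, 3.25 and 3.09 in lung and -2.81, -1.46, -2.55 and -2.49 in forestomach, a 70.0-fold difference with lower values in the lungs of mice 4 and 5. The differences of the list ran from 2.50 (Abca3) to 7.60 (Sftpd).

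Promoters of Sftpb and Sftpa1 are shown because NKX2-1, the transcription factor of lung epithelium whose sites contain CTCAAG, is classically linked to surfactant genes, and its gene Nkx2-1 was higher in lung. RefSeq windows of assembly GRCm38.p6 ran from 250 bases before to 50 after a start, and CTCAAG on either strand is in capitals.
Sftpb promoter (chr6:72304360-72304659, plus strand): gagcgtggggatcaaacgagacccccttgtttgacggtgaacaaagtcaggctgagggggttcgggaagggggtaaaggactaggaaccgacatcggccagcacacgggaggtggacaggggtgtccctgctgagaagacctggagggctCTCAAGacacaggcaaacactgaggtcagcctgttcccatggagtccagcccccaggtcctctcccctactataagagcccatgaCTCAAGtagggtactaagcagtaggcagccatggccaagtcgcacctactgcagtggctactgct
Sftpa1 promoter (chr14:41131538-41131837, plus strand): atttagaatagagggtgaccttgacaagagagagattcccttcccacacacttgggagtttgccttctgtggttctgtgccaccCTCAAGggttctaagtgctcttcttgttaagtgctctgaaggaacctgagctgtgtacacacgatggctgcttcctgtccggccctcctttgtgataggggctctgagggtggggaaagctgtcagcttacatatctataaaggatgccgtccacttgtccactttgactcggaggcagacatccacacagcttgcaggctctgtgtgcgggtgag
Sftpb held the letters 100 and 15 bases before its start and Sftpa1 166 bases before. The second match in Sftpb overlapped TGACTCA, a form of the AP-1 letters searched further on. Among the type 2 cell genes, 9 of 12 had windows (10 windows), and 3 windows held CTCAAG (30%), those of Sftpa1, Sftpb and Cxcl15. Of all 32841 windows, 15.9% held it. Each list has few windows, and over the lists the share ran from 0% (skeletal muscle) to 36.4% (heart muscle). The 30% is thus not particular to type 2 cell genes. A match describes letters only and no binding was measured.

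Of 10 tested type 1 cell genes, 8 were higher in lung (80%, beside 23.3% of all genes) and none higher in forestomach. The median was 3.70. Aqp5, the water channel of type 1 cells, had one of the largest log ratio differences in the data. It read 5.68, 5.73, 5.66, 5.45 and 5.17 in lung and -2.82, -0.36, -2.48 and -2.19 in forestomach, with mouse 2 the highest forestomach (difference 7.50, SE 0.42, adjusted p = 3.28e-07). The probe was well above background on 3 of the 4 forestomachs, and without the 2 arrays that stood apart the difference was 8.13. Ager, the receptor RAGE, read 5.86 to 6.18 in lung and -0.71 to 0.04 in forestomach and was 78.2-fold higher in lung. Pdpn (podoplanin) was 7.75-fold higher, and Cav1, a caveolar coat protein that endothelium also has, 2.41-fold. The remaining pair was not called. Hopx, a homeodomain protein of type 1 cells, read 4.72 to 5.17 in lung and 4.28 to 4.81 in forestomach, and Igfbp2 read 2.09 to 2.93 and 2.18 to 3.15.

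**Figure D3:**
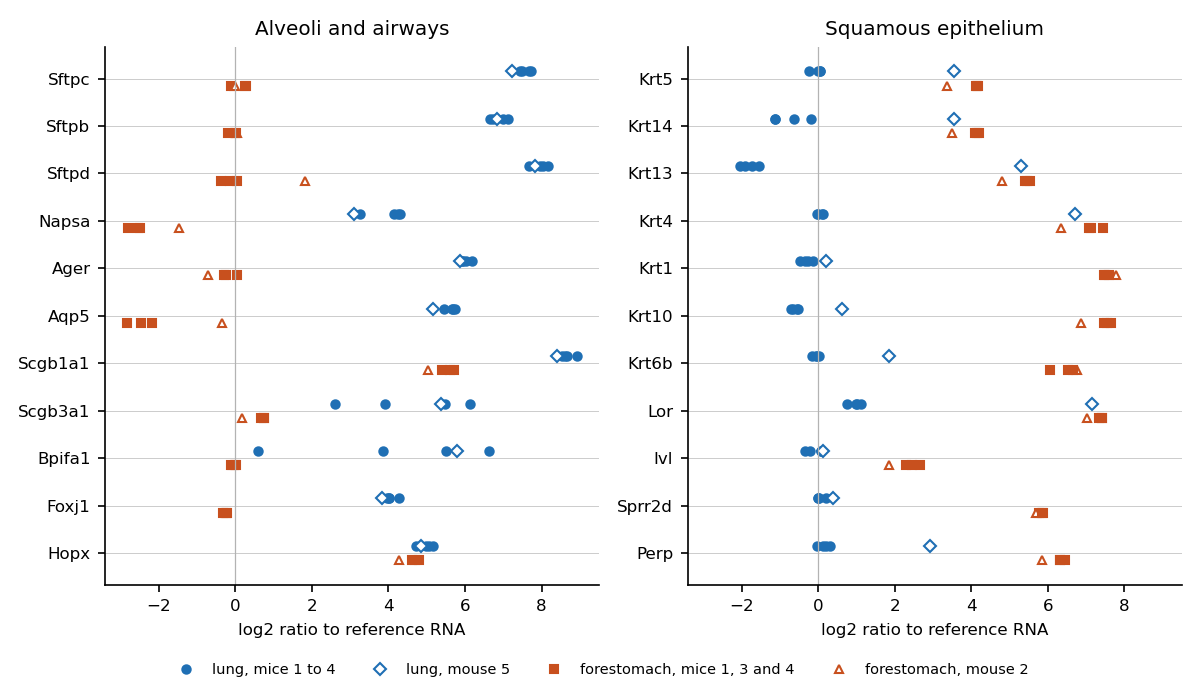
Log2 ratio to reference RNA (x axis) of 11 alveolar and airway genes (left) and 11 squamous genes (right) on each array. The forestomachs lay far below the lungs for Sftpc, and the 4 other lungs far below the forestomachs for Krt4, where the lung of mouse 5 read 6.72. Hopx differed by 0.36 and was not called.

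All 9 tested genes of club and secretory airway cells were higher in lung, beside 23.3% of all genes (median 3.18). Scgb1a1, the club cell secretory protein, read 8.54, 8.92, 8.61, 8.66 and 8.40 in lung and 5.72, 5.03, 5.40 and 5.62 in forestomach, where it was well above background on all 4 arrays. It was 9.08-fold higher in lung. Cyp2f2, a club cell cytochrome P450, also had forestomach values well above the reference, at 5.81, 5.25, 5.47 and 5.56 against 6.76, 7.16, 6.90, 7.36 and 7.07 in lung. Gabrp, a GABA receptor subunit of airway secretory cells, had the largest difference of the list, 38.9-fold. Genes of secretory cells of the larger airways varied between lungs. Bpifa1, an airway surface protein, read 3.86, 5.49, 0.58, 6.62 and 5.78 in the lungs and -0.12, -0.06, 0.02 and -0.02 in the forestomachs. The lung of mouse 3 was the lowest and that of mouse 4 the highest, as for Scgb3a1 (3.91, 5.48, 2.60, 6.14 and 5.38) and the mucin Muc5b (2.59, 3.85, 1.79, 4.77 and 3.88). Bpifb1 read -0.20, 4.74, 0.04 and -0.14 in forestomach, where mouse 2 stood alone, and 3.48, 4.41, 3.02, 4.92 and 4.61 in lung. Its call was lost without any 1 of the other 3 forestomachs, with differences of 2.54 to 2.62.

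Of 14 tested genes of ciliated cells, 13 were higher in lung and 1 was higher in forestomach (median 3.08). The share higher in lung was 92.9%, beside 23.3% of all genes. Foxj1, the transcription factor that drives motile cilia, read 3.97, 4.02, 4.01, 4.27 and 3.84 in lung and -0.22, -0.25, -0.23 and -0.33 in forestomach and was at least 21.9-fold higher in lung. Dynlrb2, a dynein light chain, had the largest difference of the list, 41.3-fold, and Ccdc39, a ruler of axoneme repeats, the smallest among those higher in lung, at 0.62 on the log2 scale. Ccdc39 was well above background on 4 of 5 lungs and on no forestomach. Without the lung of mouse 1, the lung of mouse 4 or the forestomach of mouse 2, Ccdc39 differed by 0.57 to 0.58 and was not called. Dnaic1, an outer arm dynein chain, was 1.88-fold higher in forestomach, with 2.00, 2.02, 2.03, 2.58 and 2.17 in lung and 3.43, 2.53, 3.34 and 3.00 in forestomach.

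Of 20 tested endothelial genes, 19 were higher in lung (95%, beside 23.3% of all genes), with a median of 3.40. Tmem100, a membrane protein of lung capillaries, read 5.37, 5.80, 5.32, 5.35 and 5.83 in lung and 0.32, 0.14, 0.65 and 0.10 in forestomach and was 37.6-fold higher in lung. Cdh5, the cadherin of endothelial junctions, was 31.9-fold higher, Cldn5, their claudin, 17.1-fold, and Vwf, the clotting factor carrier, 12.2-fold. The smallest called difference was that of Car4, a carbonic anhydrase of capillaries, at 2.05-fold. Kdr, the VEGF receptor 2, was not called, with 0.40 to 0.89 in lung and 0.42 to 0.81 in forestomach. The forestomach of mouse 2 was the lowest for Cdh5 at 1.36, against 2.19 to 3.01 in the others. All 5 tested red cell genes were also higher in lung. Alas2, the first enzyme of red cell haem synthesis, was 24.3-fold higher and the α-globin genes Hba-a1 and Hba-a2 4.19-fold and 3.66-fold. Globin genes share near-identical sequence, so their probes may read more than 1 copy.

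Leukocyte genes were mostly higher in lung. All 10 tested alveolar macrophage genes were (median 3.98), among them the scavenger receptor Marco (28.0-fold), the lectin Siglecf (at least 7.80-fold) and the integrin Itgax (10.4-fold). Krt79, a keratin also counted there, had the smallest difference (2.12-fold). Marco read 5.32, 4.46, 5.26, 5.15 and 5.16 in lung and -0.18, -0.15, 0.48 and 0.90 in forestomach. Plet1 and Fabp1, other members of that list, read 4.76 and 2.69 in the forestomach of mouse 2, above the other forestomachs. Of 8 tested B cell genes 6 were higher in lung. The receptor chain gene Cd79b read 0.54, -0.15, 0.39, 0.13 and 0.22 in lung and -4.79, -3.27, -4.41 and -3.45 in forestomach, a 18.4-fold difference. Cd22 and Fcer2a were not called, with differences of -0.06 and 0.04. Of 11 tested genes of T and natural killer cells 8 were higher in lung, led by the granule protease Gzma at 4.88, 5.22, 6.23, 6.32 and 6.09 in lung and -0.74, -0.45, -0.69 and -0.39 in forestomach (79.6-fold). Cd3e, Prf1 and Cd4 were not called, with differences of 0.42, 0.43 and 0.05. Of 8 tested neutrophil genes 7 were higher in lung. S100a8, a calprotectin subunit, read 2.99, 0.78, 2.56, 4.51 and 2.50 in lung and -3.09, -1.23, -2.90 and -2.86 in forestomach, with mouse 2 the lowest lung and mouse 4 the highest. Cxcr2, their chemokine receptor, differed by 0.31 and was not called. With slide as a random block, 5 of the 8 were called.

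All 8 tested genes of MHC class II presentation were higher in lung (median 2.24). Cd74, the invariant chain, read 3.55, 3.62, 3.63, 2.99 and 3.33 in lung and -0.28, -0.03, 0.20 and 0.27 in forestomach and was 10.4-fold higher (difference 3.38, SE 0.16, adjusted p = 1.29e-07). H2-Aa, a class II α chain, was 9.28-fold higher, H2-DMb1, a chain of the peptide exchanger, 7.76-fold, and H2-Eb1 1.55-fold, the smallest of the list. H2-Eb1 was not called without the forestomach of mouse 2 (0.57), and its difference turned to -0.31 under median centring. Mast cell genes split. Mcpt4, Cpa3 and Tpsb2, which encode granule proteases, were higher in forestomach by 3.07-fold, 7.03-fold and 2.26-fold, and Cpa3 by 10.6-fold without the 2 arrays. Hdc, the histamine-making enzyme that gastric endocrine cells also have, was 15.7-fold higher in lung, with 4.64, 4.62, 4.79, 5.19 and 4.74 against 0.38, 1.73, 0.67 and 0.50.

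On the forestomach side, 19 of 20 tested genes of stratified squamous epithelium were higher in forestomach (median -4.27), and the values of the lung of mouse 5 were close to the forestomach for many of them. The basal keratin Krt5 read 4.13, 3.37, 4.15 and 4.17 in forestomach and -0.23, 0.04, -0.01, 0.04 and 3.56 in lung, and its partner Krt14 4.16, 3.49, 4.21 and 4.10 and -0.20, -1.14, -1.14, -0.62 and 3.54. Krt4 and Krt13, the pair of suprabasal keratins of lining epithelia, had the widest gap between the lung of mouse 5 and the rest. Krt13 read 5.40, 4.81, 5.55 and 5.45 in forestomach and -1.91, -2.03, -1.73, -1.56 and 5.31 in lung. The tissues did not overlap in 4 of the 5 lungs, whereas the lung of mouse 5 lay within the forestomach range for Krt4 and Krt13. With all 9 arrays their log ratio differences were -5.62 and -5.69, and without the 2 arrays -7.17 and -7.28. The list median moved from -4.27 to -5.30.

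Krt6b, a keratin of fast-renewing or stressed epithelium, read 6.06, 6.78, 6.53 and 6.66 in forestomach and -0.15, -0.05, 0.03, -0.04 and 1.86 in lung, a 72.5-fold difference. Krt6a, its close relative, differed by 2.08-fold, and their near-identical sequences may share probes. Krt16 read 1.08, 3.38, 2.10 and 1.39 in forestomach, the highest in mouse 2, and -0.31 to -0.08 in the lungs. Gjb2 (connexin 26) was 30.1-fold higher in forestomach, Serpinb5 (maspin) 53.6-fold and Sfn (14-3-3σ) 7.64-fold. The lung of mouse 5 read 4.06 for Gjb2 and 4.89 for Serpinb5, and without the 2 arrays they were 50.9-fold and 122-fold higher. Trp63, the master regulator of such epithelia, was the exception. Its probe read 0.54 to 0.97 in lung and 0.24 to 0.42 in forestomach, a difference of 0.38 that was below 1.5-fold.

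Of 21 tested genes of the cornified envelope, 20 were higher in forestomach (median -5.09). Krt1 and Krt10, the keratin pair of keratinising layers, had the largest differences of the list. Krt1 read 7.49, 7.80, 7.47 and 7.61 in forestomach and -0.26, -0.35, -0.14, -0.49 and 0.21 in lung, and Krt10 7.54, 6.88, 7.46 and 7.65 and -0.65, -0.52, -0.71, -0.57 and 0.62. Krt10 was 215-fold higher in forestomach. Krt1 was well above background on 1 of the 5 lungs, so its log ratio difference is partly set against background (-7.80, SE 0.14, adjusted p = 3.58e-10). Loricrin (Lor), the main protein of the envelope, read 7.41, 7.04, 7.43 and 7.33 in forestomach and 0.76, 1.00, 1.01, 1.12 and 7.16 in lung, where mouse 5 reached the forestomach range, and its difference was -5.09, or -6.42 without the 2 arrays. Involucrin (Ivl), laid down before loricrin, read 2.29, 1.86, 2.67 and 2.45 and -0.35, -0.20, 0.08, 0.06 and 0.12, at least 4.37-fold higher in forestomach, with the lung of mouse 5 close to those of mice 3 and 4. The small proline-rich proteins Sprr1a and Sprr2d were 151-fold and 50.8-fold higher by log ratio, and the Cy5 signal of Sprr2d was at least 116-fold higher. Sprr2d read 5.78, 5.68, 5.85 and 5.86 against 0.00, 0.01, 0.01, 0.21 and 0.40. The Sprr2 genes are close copies, so probes of Sprr2d and Sprr2i may each read several.

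Among other envelope genes, Cdsn, the adhesive protein of cornified cells, was 136-fold higher in forestomach, and Sbsn 62.4-fold. Lce3a, a late envelope protein, read 7.86, 7.88, 7.94 and 8.22 in forestomach and -0.23, -0.16, 0.04, 0.01 and 7.62 in lung. Crct1 read 7.68 in the lung of mouse 5 and -0.20 to -0.03 in the other lungs, against 7.47 to 8.00 in forestomach. Tgm1, the transglutaminase of keratinocytes, was 18.6-fold higher, whereas Tgm3 was not called (0.72 to 0.88 in forestomach and 0.72 to 0.97 in lung). Evpl and Ppl, the envelope plakins, had the smaller differences of 3.36-fold and 6.30-fold. When the 2 arrays were left out, Cdsn, Sbsn and Tgm1 were 237-fold, 148-fold and 34.6-fold higher, and the list median moved from -5.09 to -6.23.

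Promoters of Sprr1a and Sprr2d are shown because AP-1, a dimer of Fos and Jun proteins, is a known activator of envelope genes and binds TGANTCA, which is in capitals here.
Sprr1a promoter (chr3:92485832-92486131, minus strand): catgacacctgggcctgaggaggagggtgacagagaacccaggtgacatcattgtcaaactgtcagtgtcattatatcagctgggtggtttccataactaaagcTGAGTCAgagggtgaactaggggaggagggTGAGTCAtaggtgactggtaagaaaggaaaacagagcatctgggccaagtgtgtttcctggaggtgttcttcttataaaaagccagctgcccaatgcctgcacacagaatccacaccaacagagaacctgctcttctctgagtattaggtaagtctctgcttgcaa
Sprr2d promoter (chr3:92338890-92339189, plus strand): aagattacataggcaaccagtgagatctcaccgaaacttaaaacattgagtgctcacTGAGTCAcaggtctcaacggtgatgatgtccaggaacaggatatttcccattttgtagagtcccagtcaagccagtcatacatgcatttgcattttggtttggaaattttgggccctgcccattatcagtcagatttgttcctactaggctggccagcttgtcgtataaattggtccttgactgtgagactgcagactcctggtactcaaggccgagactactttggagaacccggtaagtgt
Sprr1a held the letters 146 and 116 bases before its start and Sprr2d 193 bases before. The Sprr2d window also held CTCAAG, which is left in small letters. Among the envelope genes, 17 had windows (21 windows), and 11 windows held TGANTCA (52.4%), in 9 genes, among them Ivl, Lor, Sprr1b, Rptn and Krtdap. Of all windows, 7.81% held it. By gene it was 9 of 17 in the envelope list and 2425 of 27018 over all. In the squamous list 3 of 10 windows held it, and over the lists the share ran from 0% (endothelial cells among others) to the 52.4% of the envelope. Each list has few windows, some of the same gene or of related genes. As before, a match describes letters only and no binding was measured.

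Of 14 tested desmosome genes, 10 were higher in forestomach, 1 was higher in lung and 3 were not called (median -2.34). Pkp1, the plakophilin of squamous layers, had the largest difference, at 4.68, 3.75, 4.74 and 4.71 in forestomach and -2.44, -2.45, -2.64, -1.99 and 3.29 in lung. Perp, a desmosomal membrane protein, read 6.33, 5.85, 6.31 and 6.46 in forestomach and 0.13, -0.03, 0.21, 0.30 and 2.93 in lung and was 46.3-fold higher, or 74.3-fold without the 2 arrays. Dsc1, a desmocollin of upper layers, read 5.64, 2.40, 5.68 and 5.94 in forestomach, lowest in mouse 2, and -0.17, -0.19, 0.08, -0.33 and 1.24 in lung. Desmoplakin (Dsp), the link to keratins, was 9.73-fold higher in forestomach. Pkp2, a plakophilin of simple epithelia and heart, was 4.72-fold higher in lung, and Dsg2, the desmoglein of such tissues, was not called (difference 0.09). Of 12 tested claudins, 7 were higher in lung, 4 higher in forestomach and 1 was not called. The first 2 shares were 58.3% and 33.3%, beside 23.3% and 20.2% of all genes. Cldn3 was 37.5-fold and Cldn7 24.7-fold higher in lung, and Cldn18, the claudin of alveoli and stomach, read 2.95, 3.01, 2.60, 2.27 and 2.35 in lung and -0.12, 1.78, -0.21 and 0.01 in forestomach, where mouse 2 was the highest. Cldn1, the claudin of epidermis, and Cldn4 were 2.56-fold and at least 2.37-fold higher in forestomach, and Cldn22 at least 7.10-fold. Of 6 tested aquaporins, 4 were higher in lung, among them Aqp1, the capillary water channel (11.7-fold). For aquaporins 66.7% were higher in lung and 16.7% higher in forestomach, beside 23.3% and 20.2% of all genes. Aqp3, the glycerol channel of keratinocytes, was the 1 higher in forestomach, at 6.62, 6.23, 6.73 and 6.72 against -0.15, 0.13, -0.33, -0.26 and 3.71, and Aqp11 was not called (difference -0.11).

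All 15 tested smooth muscle genes were higher in forestomach (median -2.86). Actg2, the γ-actin of gut muscle, read 6.51, 5.92, 6.55 and 6.22 in forestomach and 0.57, 0.98, 0.71, 0.93 and 0.95 in lung. It was 44.4-fold higher in forestomach (difference -5.47, SE 0.15, adjusted p = 3.41e-09), and the tissues did not come near each other. The smooth muscle myosin Myh11 read 6.26, 5.61, 6.28 and 6.31 and 3.82, 4.12, 3.49, 3.57 and 3.90, a 5.04-fold difference. Tagln (SM22) was 18.7-fold higher, Acta2 (α-actin) 13.5-fold and desmin (Des) 14.5-fold, or 23.1-fold for Des without the 2 arrays. The muscarinic receptors Chrm2 and Chrm3, through which acetylcholine contracts gut muscle, were 5.30-fold and at least 2.32-fold higher. For all 15 the forestomach of mouse 2 was the lowest of the 4, as for Synpo2 (7.88, 5.01, 7.73 and 7.44).

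Of 10 tested genes of enteric neurons and glia, 7 were higher in forestomach, 1 was higher in lung and 2 were not called (median -1.21). Vip, the relaxant neuropeptide, read 3.53, 3.15, 3.46 and 2.89 in forestomach and 0.12, -0.01, -0.02, 0.00 and 0.17 in lung and was at least 7.59-fold higher. The glial S100b was 3.14-fold higher and the GDNF receptor Ret 2.20-fold. Kit, which marks the pacemaker cells of gut muscle and also mast cells, was 4.66-fold higher in lung instead, and Ano1, their chloride channel, was not called (difference 0.44).

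Fat genes depended on the forestomach of mouse 2. Of 9 tested, 6 were higher in forestomach, 1 was higher in lung and 2 were not called (median -2.46). Adipoq (adiponectin) read 4.37, -0.13, 5.07 and 5.64 in forestomach and 1.02, 1.08, 0.36, 0.56 and 1.43 in lung. It was higher in forestomach (-2.85, or -4.27 without the 2 arrays), a call that was lost without any 1 of the lungs of mice 1 to 4 or the forestomachs of mice 1, 3 and 4 (-2.90 to -2.21). Cfd (adipsin) read 7.34, 0.37, 7.56 and 7.67 and 4.13, 4.90, 3.20, 4.71 and 5.45 and was not called, but was called without the forestomach of mouse 2 (-3.04). Without the 2 arrays, the median was -3.72 in place of -2.46 and 8 of the 9 were higher in forestomach. With slide as a random block, 4 were higher in forestomach and 0 higher in lung. Fabp4, the fatty acid binder of fat and capillaries, was 17.2-fold higher in forestomach with no such gap (6.58, 6.70, 6.71 and 7.10). Lpl, the lipoprotein lipase of fat, muscle and macrophages, was 1.63-fold higher in lung, a call that was lost without any 1 of 7 of the 9 arrays (0.55 to 0.73).

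Of 9 tested heart muscle genes, 5 were higher in lung (55.6%, beside 23.3% of all genes) and 4 were not called (median 2.34). Myh6, the atrial myosin also found in pulmonary veins of mice, read 5.36, 4.26, 3.35, 6.58 and 6.08 in lung and 0.20, -0.04, 0.11 and -0.25 in forestomach, and Myl4, the atrial light chain, 2.45, 1.46, 0.50, 5.37 and 4.64 and -1.35, -1.35, -1.57 and -1.23. The lungs of mice 4 and 5 were the highest and that of mouse 3 the lowest. Myl7, the other atrial light chain, had the smallest difference (0.25) and was not called. Of 7 tested skeletal muscle genes, 1 was higher in each tissue and 5 were not called (28.6% called, beside 43.5% of all genes). Mb, the oxygen store myoglobin of heart and skeletal muscle, was the 1 higher in lung (at least 15.0-fold, with a log ratio difference of 3.08). Myh2, a fast myosin, was the 1 higher in forestomach (6.13-fold, or 13.4-fold without the 2 arrays). Acta1, skeletal α-actin, read -1.43, -1.36, -1.70, -1.70 and 5.96 in lung, with mouse 5 above all forestomachs (3.63, 2.18, 3.67 and 3.27). Tnni2, fast troponin I, read -0.66, -0.56, -0.46, -0.47 and 6.88 in lung and 3.30, 2.61, 3.91 and 3.34 in forestomach. Neither was called with all arrays, and without the lung of mouse 5 both were higher in forestomach (-4.73 and -3.82). Without the 2 arrays, 4 of the 7 were higher in forestomach, and the list median was -2.26 in place of -0.80.

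Genes of the glandular stomach, which borders the forestomach, gave 2 of 10 tested higher in lung, 4 higher in forestomach and 4 not called (20% and 40%, beside 23.3% and 20.2% of all genes). Gkn2, a gastrokine of surface mucous cells, read 1.60, 7.63, 1.77 and 0.91 in forestomach and -0.08 to 0.07 in lung, and Pgc, a pepsinogen, 0.08, 5.63, 0.06 and 0.31 and -0.13 to 0.01. Mouse 2 alone was high for Pgc. Tff1, a trefoil peptide of mucous cells, had the largest difference toward forestomach, at 3.40, 5.93, 3.64 and 2.73 against -0.43 to -0.22 in lung. Gkn2 was higher in forestomach (-2.97, or -1.40 without the 2 arrays), a call that was lost without any 1 of the 5 lungs or the forestomach of mouse 3 (-3.38 to -2.95). Chia1, an acidic chitinase that lung type 2 cells also make, read 6.69, 7.15, 6.94, 5.86 and 6.23 in lung and 0.09, 8.61, 0.33 and 0.13 in forestomach, so the sign of its difference turned on the mouse. Its call as higher in lung was lost without any 1 of the 5 lungs or of the forestomachs of mice 1, 3 and 4 (3.55 to 4.46). Without the 2 arrays, Chia1 differed by 6.48 in place of 4.28, and the list median turned from -0.83 to 0.17. Capn9, a digestive tract calpain, was at least 20.7-fold higher in forestomach with no such array (3.12, 2.93, 3.63 and 3.12). The log ratio difference of Capn9 was -3.56. Of 4 tested pancreas genes 1, Cel, was higher in forestomach, and Clps (colipase) read 0.23, 7.17, 1.78 and 0.53 in forestomach. Ctrb1, a chymotrypsinogen, differed by -0.20.

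Of 23 tested transcription factors that pattern tissues of the foregut and its lining, 11 were higher in lung and 10 higher in forestomach. These shares were 47.8% and 43.5%, beside 23.3% and 20.2% of all genes. Nkx2-1, which specifies lung and thyroid, read 4.58, 4.82, 4.58, 4.50 and 4.29 in lung and -0.14, 0.09, -0.16 and -0.01 in forestomach, at least 21.5-fold higher in lung (difference 4.61, SE 0.11, adjusted p = 1.88e-09). The mesenchymal T-box factors Tbx4 and Tbx5 were at least 28.4-fold and at least 11.5-fold higher, Tbx3 14.8-fold and Tcf21 7.71-fold. Foxa2, a pioneer factor of endoderm, read 5.94, 5.79, 5.83, 6.14 and 5.64 in lung and -0.86, 4.22, -1.04 and -1.10 in forestomach. Gata6 and Gata4 also had their highest forestomach value in mouse 2, at 0.97 and 2.20, and Gata4 was not called (difference -0.49).

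On the other side, Barx1, a mesenchymal factor of the stomach wall, read 3.83, 2.18, 3.64 and 3.65 in forestomach and -0.08, -0.01, 0.16, 0.08 and 0.03 in lung (at least 7.98-fold). Grhl3, a grainyhead factor of epidermal barriers, was 35.6-fold higher in forestomach and its relative Grhl1 15.5-fold. Tfap2c read 5.64, 4.91, 5.58 and 5.77 in forestomach and 0.30, 0.47, 0.29, 0.29 and 2.14 in lung (27.4-fold). Pitx1 was 26.3-fold higher, with the lung of mouse 5 at 4.59 against -0.51 to -0.10 in the others. Grhl3 and Pitx1 were 60.4-fold and 60.9-fold higher without the 2 arrays. Sox2, which foregut epithelia of both organs express, was 2.56-fold higher in forestomach, at 3.96, 2.54, 3.76 and 4.23 against 2.06, 2.37, 2.31, 1.95 and 2.66. Klf4 and Klf5, epithelial differentiation factors, were 3.41-fold and 3.02-fold higher.

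The Hox genes, which set position along the body axis, lie in clusters A to D. Of 39 genes, 19 were tested, of which 7 were higher in forestomach, 2 higher in lung and 10 not called (36.8% and 10.5%, beside 20.2% and 23.3% of all genes). Of 5 tested HoxC genes, 4 were higher in forestomach. Hoxc6 read 0.57, -0.62, 0.14 and 0.50 in forestomach and -5.46, -5.79, -5.55, -4.78 and -3.51 in lung, a 35.9-fold difference (difference -5.17, SE 0.45, adjusted p = 6.21e-06). Hoxc5 read 4.37, 3.31, 3.91 and 4.34 and -0.63, -0.69, -0.61, -0.29 and 0.33. Hoxc4 was 24.3-fold and Hoxc8 at least 4.42-fold higher in forestomach, while Hoxc13 was not called (difference -0.19). Without the 2 arrays that stood apart, Hoxc6 and Hoxc4 differed by -5.80 and -5.32. In the HoxB cluster, Hoxb7 and Hoxb6 were 5.48-fold and 2.70-fold higher in forestomach and Hoxb5 1.82-fold higher in lung. In HoxA, Hoxa5, which lung morphogenesis needs, was 2.20-fold higher in lung, at 2.26, 2.32, 2.33, 1.72 and 1.95 against 1.05, 0.45, 1.14 and 1.27, and Hoxa7 2.18-fold higher in forestomach. No HoxD gene was bright enough to be tested (0 of 9). Median centring left 5 Hox genes higher in forestomach and 0 higher in lung.

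**Figure D4:**
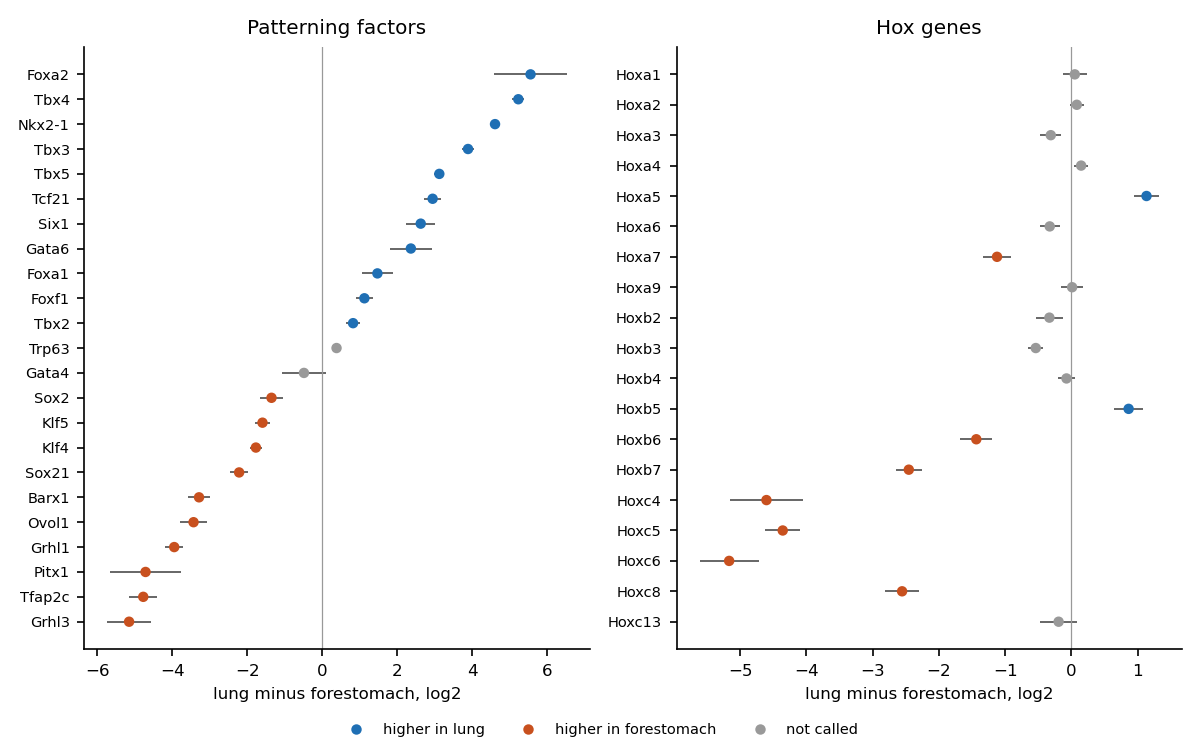
Lung minus forestomach difference on the log2 scale (x axis) of 23 patterning factors, ordered by size, and of 19 Hox genes, in cluster order, with standard errors as bars. HoxC genes reach -5.17 (Hoxc6), whereas Hoxa5 and Hoxb5 lie on the lung side at 1.13 and 0.86.

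Genes of polycyclic hydrocarbon metabolism were compared without any BaA exposure. The aryl hydrocarbon receptor (AhR) binds such compounds and, with ARNT, induces cytochromes P450 of family 1, which oxidise them to reactive or excretable forms. Of 18 tested genes of the AhR pathway and phase I, 11 were higher in lung, 3 were higher in forestomach and 4 were not called (61.1% and 16.7%, beside 23.3% and 20.2% of all genes). Ahr itself read 1.66, 1.64, 1.79, 1.45 and 1.33 in lung and -0.61, -0.32, -0.55 and -0.46 in forestomach and was 4.16-fold higher in lung (difference 2.06, SE 0.11, adjusted p = 2.79e-07). Arnt was 1.65-fold higher and Tiparp, an AhR target that restrains the receptor, 1.90-fold. Under median centring 5 of the 18 stayed higher in lung and 3 higher in forestomach, and the calls of Ahr, Arnt and Tiparp were lost. Ahrr, the AhR repressor, was too dim to be tested, as was Cyp1a2.

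Cyp1a1, the AhR target that oxidises BaA, read 3.22, 2.89, 2.84, 1.76 and 2.42 in lung and 0.77, 0.07, 0.54 and 1.20 in forestomach, 3.96-fold higher in lung (difference 1.98, SE 0.30, adjusted p = 2.89e-04). The tissues did not overlap, but the call was lost when the 39 lung and forestomach arrays shared 1 estimate of the spread (adjusted p = 0.107). Cyp1b1, another member of family 1, ran the other way, at -0.05, -0.24, -0.34 and 0.09 in forestomach and -1.06, -1.31, -1.36, -1.41 and -1.49 in lung (2.28-fold higher in forestomach). Aldh3a1, an aldehyde dehydrogenase of surface epithelia, was 3.42-fold higher in forestomach, with the lung of mouse 5 at 3.05 against 0.53 to 0.95 in the other lungs. Cyp2s1 was 2.73-fold higher in forestomach. The flavin monooxygenases Fmo1 and Fmo2 were 24.7-fold and 2.98-fold higher in lung, and Cyp4b1 22.9-fold. Fmo1 read 5.98, 6.07, 5.82, 5.33 and 5.58 in lung and 1.34, 0.13, 1.34 and 1.70 in forestomach. Por, the reductase that feeds electrons to these P450s, and Ephx1, the microsomal epoxide hydrolase, were not called, with differences of 0.37 and 0.36. Cyp2e1 read 3.46, 0.62, 3.69 and 4.67 in forestomach, lowest in mouse 2, and 2.06 to 3.19 in lung, and was called, as higher in forestomach, only without that array (-1.38).

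Of 25 tested conjugation and antioxidant enzymes, 14 were higher in forestomach, 7 higher in lung and 4 were not called (56% and 28%, beside 20.2% and 23.3%). Nqo1, a quinone reductase induced through AhR and NRF2, read 2.13, 2.97, 1.79 and 1.34 in forestomach and -1.43, -1.50, -1.20, -0.85 and -0.55 in lung and was 8.97-fold higher in forestomach (difference -3.16, SE 0.31, adjusted p = 1.56e-05). The α-class glutathione transferases Gsta1 and Gsta2 were 35.1-fold and 20.1-fold higher in forestomach, and their probes may each bind both near-identical transcripts. Gsta1 read 4.26, 5.87, 4.24 and 4.16 and -0.80, -0.82, -0.85, -0.62 and 0.58, highest in the forestomach of mouse 2. Gsta3, of the same class, was 6.71-fold higher in lung, with 4.88, 4.95, 5.05, 4.93 and 4.66 against 1.89, 2.44, 2.13 and 2.14. Gstp1 and Gsto1 were 3.59-fold and 5.85-fold higher in forestomach, and Ugt2b34, a glucuronosyltransferase, at least 31.2-fold. Hmox1, the haem oxygenase that NRF2 induces, read 1.37, 0.72, 1.32 and 1.20 in forestomach and -1.16, -1.33, -0.90, -1.04 and -0.85 in lung (4.63-fold). The subunits of the enzyme that limits glutathione synthesis split, with the catalytic Gclc 2.95-fold higher in lung and the modifier Gclm 1.68-fold higher in forestomach. Gpx3, the secreted glutathione peroxidase, was 3.70-fold higher in lung and Gpx2, the epithelial one, 2.02-fold higher in forestomach. Txnrd1, Mgst1, Gstt3 and Sult1d1 were not called, with differences of -0.33, 0.49, 0.23 and 1.28. Median centring left 11 of the 25 higher in forestomach and 1 higher in lung. Without the forestomach of mouse 2, Sult1d1 differed by 2.00 and was called.

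**Figure D5:**
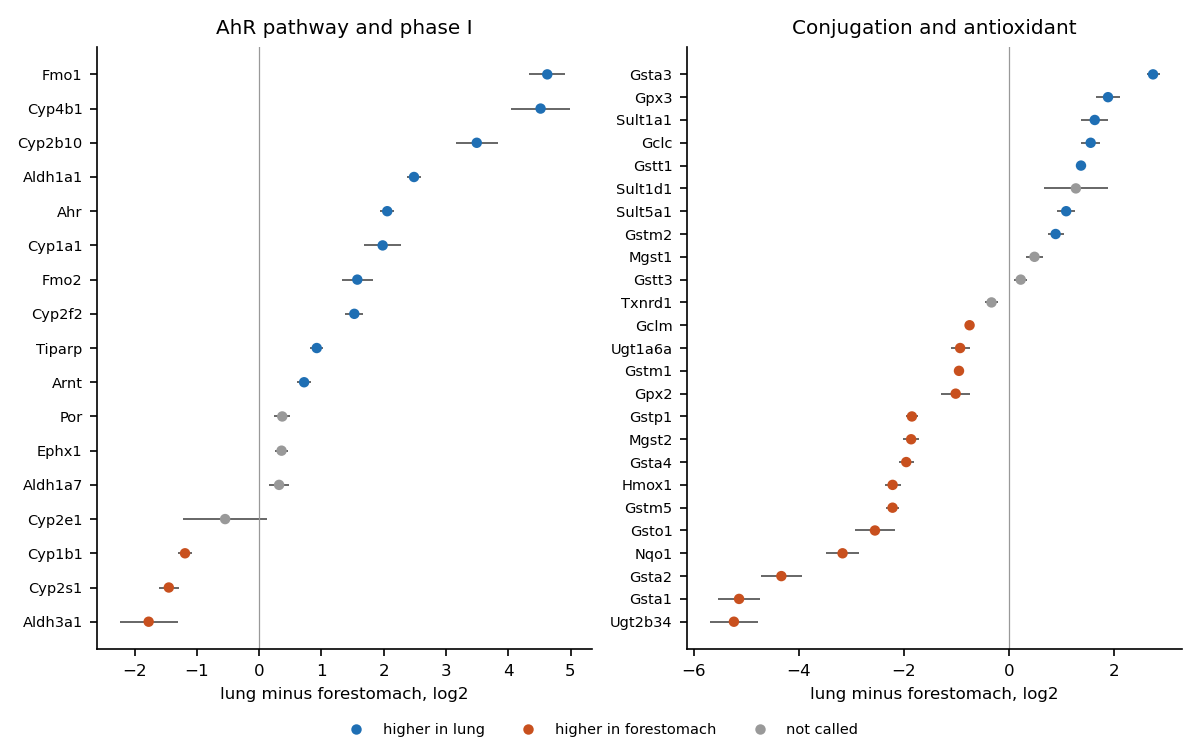
Lung minus forestomach difference on the log2 scale (x axis) of 17 of the 18 AhR pathway and phase I genes and of 25 conjugation and antioxidant genes, each ordered by size, with standard errors as bars. The first group has its largest plotted lung difference at 4.63 (Fmo1), and the second holds 14 genes higher in forestomach, with Ugt2b34 at -5.23.

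Most genes of nucleotide excision repair, the pathway that removes bulky hydrocarbon adducts from DNA, were not called. Of 19 tested, 1 was higher in lung, 3 were higher in forestomach and 15 were not called (21.1% called, beside 43.5% of all genes). Xpc, the damage sensor, was 1.90-fold higher in lung, at 1.05, 1.07, 1.19, 0.75 and 0.98 against 0.30, -0.02, 0.01 and 0.04. Its partner Rad23b was 2.10-fold higher in forestomach, Ercc1, part of an incision nuclease, 2.03-fold and Gtf2h1, a TFIIH subunit, 1.65-fold. Xpa and Ddb2, which bind damaged DNA, differed by -0.19 and -0.38 and were not called. Median centring left 0 repair genes called. Of 12 tested proliferation genes, 7 were higher in forestomach, 0 higher in lung and 5 not called. Mki67, the antigen Ki-67 of cycling cells, read -2.29, -2.73, -2.84 and -2.13 in forestomach and -4.07, -4.06, -3.68, -3.85 and -3.39 in lung (2.48-fold), and Rrm2, the S-phase ribonucleotide reductase subunit, was 3.16-fold higher. Pcna, the replication clamp, read -2.29 to -1.92 in forestomach and -1.93 to -1.59 in lung and was not called.

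Elastic fibre genes gave 6 of 16 higher in lung, 4 higher in forestomach and 6 not called (37.5% and 25%). Fbln5, a fibulin needed for fibre assembly, was 5.59-fold higher in lung and Mfap4 3.86-fold, while elastin itself (Eln) read 1.68 to 2.69 in lung and 1.45 to 3.39 in forestomach and was not called. Fbln1 was 2.43-fold and the lysyl oxidase Loxl2 2.68-fold higher in forestomach. Of 14 tested heat shock genes, 3 were higher in lung and 2 higher in forestomach (21.4% and 14.3%, beside 23.3% and 20.2% of all genes). Hspa1a, inducible HSP70, read 4.72, 2.90, 5.24 and 4.39 in forestomach and 3.75, 2.76, 3.00, 2.22 and 1.68 in lung and varied widely in both. It was higher in forestomach (-1.63), but not without the forestomach of mouse 1 or of mouse 3 (-1.50 to -1.32). Dnaja1, an HSP40 co-chaperone, was 2.59-fold higher in lung. Of 11 tested clock genes, 4 were higher in lung and 2 higher in forestomach (36.4% and 18.2%). The time of day of collection is not given in the sources used here. Per1 read 1.02, 1.65, -0.18, 1.04 and 0.46 in lung and -0.10, 0.15, -1.26 and -0.04 in forestomach, with mouse 3 the lowest in each tissue. It was higher in lung (1.11), but not without the lung of mouse 1, 2 or 4 or the forestomach of mouse 3 (0.79 to 1.05). Tef, an output factor of the clock, was 2.53-fold higher in lung and Clock 1.89-fold higher in forestomach. Under median centring no gene of these 3 lists was called, and their medians changed sign.

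The same tissue contrast was then taken in mice given 20, 40 or 80 mg/kg-bw/day of BaA (D1, D2 and D3), with 5 lungs and 5 forestomachs in each group. None of these arrays entered the vehicle differences given above. They were fitted together with the vehicle arrays, 39 arrays in all, and shared 1 estimate of the spread with them. The genes were those that passed the filter on the vehicle arrays, so the calls are not a fully separate repeat. Of 13623 genes, 6104 (44.8%), 6197 (45.5%) and 6158 (45.2%) were called. Those higher in lung made up 23.8%, 24.8% and 25.2% of all genes and those higher in forestomach 21%, 20.7% and 20%. Of the 3176 genes higher in vehicle lung, 2823, 2904 and 2891 were again higher in lung, and of the 2750 higher in vehicle forestomach, 2461, 2447 and 2385 were again higher in forestomach. A call in the opposite direction was made for 0, 2 and 1 genes. Sftpc differed by 7.29, 7.39 and 7.51 at D1, D2 and D3 beside 7.41 in vehicle mice, Krt1 by -7.92, -7.98 and -7.82 beside -7.80, and Hoxc6 by -4.99, -5.48 and -5.71 beside -5.17. For Krt4 the differences were -6.83, -7.07 and -5.93 beside -5.62, and for Nqo1 -4.08, -3.82 and -3.86 beside -3.16. Cyp1a1 differed by 0.41, -0.53 and 0.22, and its contrast was called at none of the 3 doses (adjusted p = 0.735, 0.659 and 0.863). Cyp1b1 differed by -0.24, -0.53 and -0.36 beside -1.19, and was not called in the dosed mice either. Adipoq differed by 0.00, 0.43 and -0.48 beside -2.85 and Cfd by 2.26, 2.04 and 1.64 beside -1.25, and neither was called in the dosed mice. Gkn2 differed by -7.52, -5.49 and -5.86 beside -2.97, and Pgc by -5.10, -2.38 and -2.68 beside -1.59. Whether the tissue difference itself changed with dose was not tested here.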

How the data were processed

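Gene expression was measured on 2-colour Agilent mouse arrays. Feature Extraction 10.7.3.1 intensities were deposited by the authors for each array, as median signals that had not been background-corrected. A table of log2 ratios, normalised by the authors with LOWESS, was also deposited and served as an alternative. Its columns correlated with the ratios used here with r of at least 0.996. Tissue RNA was always in Cy5, with no dye swap.

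Here control spots and outlier spots (0.506%) were left out, log2 ratios of median signals were normalised within each array by loess (span 0.3, 4 iterations), and spots of 1 probe were averaged. Of 55681 probes, 25930 were tested, namely those whose Cy5 signal was well above background on 4 or more arrays of 1 tissue. limma 3.58.1 in R 4.3.3 was fitted to 5 lung and 4 forestomach arrays in place of the MAANOVA test of the methods, with the thresholds of the methods (adjusted p of at most 0.05, fold of at least 1.5) and no mouse block. A probe was named through its accession in the RefSeq tables, which gave 26413 probes a symbol (20018 symbols). Each gene was represented by its tested probe with the brightest Cy5 signal. Of 3198 genes with several tested probes, 11 had probes called in opposite directions. Probes were not saturated in Cy5 on the 9 arrays, and saturation in Cy3 was not checked. The number of arrays limits the precision. The p-values rest on the spread between arrays of 1 tissue, in which mouse, slice and slide are mixed. On simulated data with these group sizes, 75 of 100 probes changed by 1 on the log2 scale and 96 of 100 changed by 2 were recovered. The simulation changed few probes and drew independent noise, without slides or arrays that stood apart. In the data 38% of probes were called, so the simulated recovery does not give the power of this comparison.

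Genes named were the 10 largest differences in each direction among genes well above background on all 9 arrays, the 5 largest bounds in each direction, and from each list the extremes and further members by role. For the largest differences and bounds, only called genes whose lung and forestomach values did not overlap were taken. The lack of overlap of those genes was thus set by the choice. The members, lists and tests were chosen with earlier results of these data known. Mouse numbers pair tissues by animal, per the labels. Deviations from the tissue means correlated between the tissues of 1 mouse with r of 0.00, -0.08, 0.10 and -0.11 for mice 1 to 4. Alternatives were the deposited log2 table, normexp, the processed signals, median centring, Cy5 alone, other filters and folds, mouse or slide as a block, all 58 arrays, and leaving out arrays. Dropping the lung of mouse 5 and the forestomach of mouse 2 together was added after seeing the data. Normexp was run on median signals, since mean signals were not used here. Values of 2 list members are not reported here, though list counts and medians include them.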

Additional observations from a re-analysis of the deposited data

Results flagged for a closer look

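For every gene named and every list mean, the array of a tissue that lay farthest from the others was set against the whole range of that tissue (Dixon's 95% limits). Chance passes about 1 in 20 groups that are independent and not chosen from the data, and 98 of 520 did here. These groups share the same arrays and were chosen with earlier results known, so the 2 rates cannot be compared as a test. The forestomach of mouse 2 was the distant array in 48 and the lung of mouse 5 in 43. No explanation was tested.

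In the lung of mouse 5 the list means that stood apart were those of cornified envelope (3.21), desmosome genes (1.75), skeletal muscle (5.09), stratified squamous epithelium (3.36) and tissue patterning transcription factors (2.49), all above the other lungs. Single genes with log2 ratios above the other lungs were Acta1 (5.96), Ada (5.34), Aldh3a1 (3.05), Aqp3 (3.71), Cdsn (0.22), Crct1 (7.68), Cst6 (0.38), Cstdc5 (5.59), Des (3.28), Dsc1 (1.24), Dsp (4.47), Evpl (4.23), Gjb2 (4.06), Grhl3 (3.42), Gsta1 (0.58), Hoxc4 (-0.58), Krt10 (0.62), Krt13 (5.31), Krt14 (3.54), Krt4 (6.72), Krt5 (3.56), Krt6b (1.86), Krtdap (5.83), Lce3a (7.62), Lor (7.16), Myh2 (2.75), Perp (2.93), Pitx1 (4.59), Pkp1 (3.29), Rptn (3.83), Sbsn (3.71), Serpinb3c (5.83), Serpinb5 (4.89), Sprr1b (2.13), Tfap2c (2.14), Tgm1 (2.87) and Tnni2 (6.88). Ccdc39 (0.20) lay below the other lungs.

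In the forestomach of mouse 2 the list mean of glandular stomach (5.43) lay above the other forestomachs, and those of cornified envelope (5.13) and endothelial cells (0.90) lay below. Genes with log2 ratios above the other forestomachs were Bpifb1 (4.74), Chia1 (8.61), Cldn18 (1.78), Cpm (2.48), Ctrb1 (0.40), Dsg2 (1.85), Fabp1 (2.69), Foxa2 (4.22), Gata4 (2.20), Gkn2 (7.63), Gsta1 (5.87), Gsta2 (6.41), Gsto1 (4.13), Kdr (0.81), Muc5b (0.50), Pgc (5.63), Pkp2 (-0.48), S100a8 (-1.23), Sfta2 (2.83), Siglecf (0.14), Sult1d1 (3.29) and Tgm3 (0.88). Those below them were Ano1 (1.96), Barx1 (2.18), Cfd (0.37), Chrm2 (1.68), Cldn5 (1.99), Dsc1 (2.40), Evpl (4.44), Fbln1 (2.76), Fbln5 (-1.46), Fmo2 (2.56), Gpx2 (5.49), Igfbp2 (2.18), Krt14 (3.49), Krt5 (3.37), Krtdap (5.68), Myh11 (5.61), Pitx1 (4.68), Pkp1 (3.75), Sbsn (4.83), Scgb3a1 (0.17), Sfn (3.77), Synpo2 (5.01) and Tgm1 (3.93).

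The other distant arrays were each the forestomach of mouse 1 for Xpc (0.30, above the rest), the forestomach of mouse 3 for Ddb2 (-1.53, below the rest), the lung of mouse 1 for Tgm3 (0.72, below the rest), the lung of mouse 2 for Marco (4.46, below the rest), the lung of mouse 2 for the list mean of endothelial cells (4.79, above the rest), the lung of mouse 4 for Chil3 (4.03, above the rest) and the lung of mouse 4 for the list mean of ciliated cells (3.74, above the rest).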

How the results depend on the processing

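Of 9848 probes called (5380 higher in lung, 4468 higher in forestomach), and 5926 genes called, counts stayed within 1.5 times under the deposited log2 table, normexp, the processed signals, Cy5 alone, no filter, a mouse or slide block and all 58 arrays. Median centring gave 4342 probes (1611 and 2731) and 2685 genes (999 and 1686), so that 37.2% of called genes were higher in lung in place of 53.6%. It moved the median difference over probes from 0.03 to -0.43. The cause was not tested. A minimum fold of 2 gave 5564 probes (3157 and 2407) and 3620 genes (2018 and 1602). No minimum fold gave 15345 probes (8158 and 7187) and 8714 genes (4578 and 4136). Requiring probes to be well above background on all 9 arrays gave 3351 probes higher in lung, from 18719 tested. Leaving out 1 array at a time gave 9555 to 10336 probes, 5196 to 5535 of them higher in lung and 4346 to 4855 higher in forestomach, and 5782 to 6205 genes (3094 to 3265 and 2678 to 2940). Between 38.4 and 58.2% of probes were well above background in Cy5, so for dim genes a difference was not detectable and log ratios near 0 have no order.

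With mouse as a fixed replicate block, the pairing of tissues by animal, 10103 probes (5511 and 4592) and 6047 genes were called, and as a random block 9810 probes and 5905 genes. The fixed block ended the calls of Gkn2 and Lpl and called Acta1 and Tnni2, and changed no other call among the genes named. Mouse 5 has no forestomach array here, so under that block its lung adds nothing to the difference. The differences are then those without that lung, such as 0.024 for Cd22 and -0.20 for Myl7. Leaving out that lung alone changed the calls of Gkn2, Lpl, Acta1 and Tnni2 in the same way. With slide as a random block the calls of Adipoq, Bpifb1, Chia1, Hspa1a, Lpl and Per1 were lost, and no gene named gained one.

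The genes and list medians whose differences changed sign are these, and among the genes only H2-Eb1 was called in the fit reported. Under median centring the sign changed for the median of tissue patterning transcription factors (-0.28), the median of elastic fibre genes (-0.37), the median of heat shock genes (-0.64), the median of clock genes (-0.14), Ano1 (-0.27), Cd3e (-0.19), Cd4 (-0.50), Dsg2 (-0.0078), Ephx1 (-0.61), Fcer2a (-0.25), Gstt3 (-0.42), H2-Eb1 (-0.31), Hopx (-0.50), Kdr (-0.52), Mgst1 (-0.39), Myl7 (-0.28), Pcna (-0.42), Por (-0.48), Prf1 (-0.034), Tgm3 (-0.33) and Trp63 (-0.28). With Cy5 alone the sign changed for Cd4 (-0.41), Fcer2a (-0.012), Kdr (-0.20) and Tgm3 (-0.18). With the processed signals the sign changed for Dsg2 (-0.18), Fcer2a (-0.11) and Myl7 (-0.50). With the deposited log2 table the sign changed for Fcer2a (-0.021). With the fixed mouse block the sign changed for Cd22 (0.024) and Myl7 (-0.20). With probes well above background on all 9 arrays the sign changed for the median of B cells (-0.010) and the median of aquaporins (-0.11). Without the lung of mouse 5 and the forestomach of mouse 2 the sign changed for the median of glandular stomach (0.17), Aqp11 (0.11), Fcer2a (-0.17), Gata4 (0.27) and Myl7 (-0.50). Leaving out 1 array at a time, the difference ran from below to above 0 for Aqp11 (-0.26 to 0.15), Cd22 (-0.13 to 0.024), Dsg2 (-0.0059 to 0.33), Fcer2a (-0.19 to 0.16), Gata4 (-0.77 to 0.29), Hoxc13 (-0.34 to 0.0045), Myl7 (-0.30 to 0.84) and the median of glandular stomach (-1.21 to 0.16). Over all alternatives, 4938 values of the 227 genes named kept direction and side of the threshold, 125 lost the call and 29 gained it.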
